A study of Mus musculus with 6 samples.

Results

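The genes described here are the ligands and receptors of the tumour necrosis factor (TNF) superfamily, measured in colon of Islr knockout and control mice. Members were all genes whose mouse symbol begins with Tnfsf or Tnfrsf, together with Tnf, Lta, Ltb, Ltbr, Fas, Fasl, Cd40, Cd40lg, Cd27, Cd70, Eda, Edar and Ngfr. The mouse annotation used for names lists 46 such genes, and 44 of them had at least 1 probe that could be named by its RefSeq accession, of 23462 named genes on the array. These 44 genes were covered by 61 probes. For 39 of the genes at least 1 probe (48 probes in all) was bright enough to be tested. Tnfsf13 and the antisense transcript Tnfsf13os had no probe named in this way.

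TNF superfamily ligands are mostly trimeric proteins that sit on the cell surface or are shed from it. Their receptors signal within the cell that carries them, through adaptor proteins of the TRAF family or through intracellular death domains. Many of the receptors switch on NF-kB, a transcription factor family that drives inflammatory genes, and some can start cell death. In the intestine the family is known for inflammatory cytokine signalling by TNF itself, for building lymphoid follicles through lymphotoxin and RANKL (the product of Tnfsf11), for the survival of B cells and plasma cells, and for costimulation of T cells.

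The arrays came from 3 controls and 3 Islr knockouts, all male. Islr encodes a secreted protein with leucine-rich repeats. The source field of every sample, controls included, describes dextran sulfate sodium, a sulfated polymer that damages colon epithelium, at 3.5% in the water over 5 days with 1 further day to recover, whereas the treatment field says that none was given. The knockout allele, the cells in which it acts, the strain and the age are not given in the sources used here; the titles of the controls end in WT. The series' design text speaks of flow separation into TRIzol without naming a cell population. Markers of several tissue compartments were present: 9 of 9 colon epithelium, 5 of 5 smooth muscle and 7 of 7 fibroblast markers had a probe well above background on at least 1 array. In such bulk samples, fewer cells of a type and less RNA per cell cannot be told apart.

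Values below are log2 signals relative to the 75th percentile of the same array, so 0 is that percentile, and each difference is the knockout mean minus the control mean in these log2 units. Levels of different probes cannot be set against each other. Each genotype filled its own row of the single slide, so row and genotype cannot be told apart. Islr itself was lower in every knockout, at -1.40, -0.93 and -1.31 against 1.24 and 1.21 in control replicates 2 and 3, while control replicate 1 gave 1.57 from a spot marked as an outlier and left out of the fit (difference -2.44, SE 0.21, limma adjusted p 0.0171). Over all 35351 tested probes 1403 passed an adjusted p of 0.05 in limma, and 39.1% of these were higher in the knockout, a share of 23.4% under quantile normalization and 51.1% with normexp background correction. With 1 array left out this share ran from 10% (without knockout replicate 3) to 55.1% (without control replicate 1). Before scaling, every knockout array was dimmer at the 75th percentile than every control array (4910.5 to 5820.0 against 6353 to 7110.5 intensity units).

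The account that follows turns on these results: Tnfsf11, Tnfrsf9 and Tnfrsf17 fell, Tnfrsf11a rose, and Tnf and the lymphotoxin genes passed no test. The stretches of RefSeq promoter sequence just before the start of 4 members are shown because these genes are the ligand and receptor of the RANK system, which moved in opposite directions, and a pair of genes whose promoters hold a kappa B-like motif. Capitals mark the kappa B-like motif on either strand, sequences run 5′ to 3′ on the strand of the gene in assembly GRCm38.p6, and each ends at the base before the annotated start.
Tnfsf11, chr14:78308044-78308293, minus strand: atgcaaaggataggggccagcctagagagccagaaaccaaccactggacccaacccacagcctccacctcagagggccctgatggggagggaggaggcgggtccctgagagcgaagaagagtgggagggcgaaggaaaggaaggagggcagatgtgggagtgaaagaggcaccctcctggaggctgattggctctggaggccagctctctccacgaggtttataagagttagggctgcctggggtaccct
Tnfrsf11a, chr1:105780473-105780722, plus strand: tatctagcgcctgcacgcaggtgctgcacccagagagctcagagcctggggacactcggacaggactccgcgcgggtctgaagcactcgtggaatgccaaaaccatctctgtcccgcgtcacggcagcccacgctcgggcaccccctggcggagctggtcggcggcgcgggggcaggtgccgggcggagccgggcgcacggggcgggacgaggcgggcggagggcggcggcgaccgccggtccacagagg
Tnfrsf9, chr4:150927749-150927998, plus strand: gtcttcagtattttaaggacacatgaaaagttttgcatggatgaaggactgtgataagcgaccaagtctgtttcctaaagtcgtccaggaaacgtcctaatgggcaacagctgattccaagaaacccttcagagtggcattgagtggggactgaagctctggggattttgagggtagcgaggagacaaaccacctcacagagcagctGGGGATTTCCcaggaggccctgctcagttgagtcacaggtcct
Ltb, chr17:35194257-35194506, plus strand: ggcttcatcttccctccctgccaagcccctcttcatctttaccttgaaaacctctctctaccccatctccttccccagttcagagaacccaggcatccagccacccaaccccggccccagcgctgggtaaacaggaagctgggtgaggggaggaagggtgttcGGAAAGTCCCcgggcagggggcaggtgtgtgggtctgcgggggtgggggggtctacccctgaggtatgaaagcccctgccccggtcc

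The kappa B-like motif, a loose form of the DNA letters that NF-kB binds, was searched on both strands of windows of 300 bases (250 before to 50 after the start). It was found in 3 of 39 promoters of 35 members (7.69%) and in 1.63% of 32851 promoters of that length, with no test made. In the second of the Tnfrsf9 promoters the match GGGGATTTCC began at position -43 from the start, in Ltb the match GGAAAGTCCC, on the other strand, began at position -87, and the third was in 1 of the promoters of Tnfrsf25. Of these genes Tnfrsf9 passed the test between genotypes, and Ltb and Tnfrsf25 did not. The windows of Tnfsf11, Tnfrsf11a and Tnfrsf17 held no match, which says only that these letters are not in them.

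Of the 39 tested members, 4 (10.3%) had a probe with an adjusted p under 0.05 in limma, against 5.00% of the 16451 named genes tested. Tnfsf11, Tnfrsf9 and Tnfrsf17 fell (3 of 39, background 3.20%) and Tnfrsf11a rose (1 of 39, background 1.81%). Counted by probe, 5 of 48 were called (10.4%, background 3.97%), 4 lower (background 2.42%) and 1 higher (background 1.55%). At an unadjusted p under 0.05 there were 20 of 39 members (51.3%) against 32.9% of named genes. The groups did not overlap at 27 of 44 member probes with all 6 values usable (61.4%, background 34.5%), and 13 of these 44 also differed at least 2-fold (29.5%, background 10.7%). By the brightest tested probe 25 of 39 members were lower and 14 higher, and their differences ran from -2.57 to 1.63 around a median of -0.47. Over all named genes 48.8% were lower and the median was 0.01. Among the 9 members with several tested probes, the probes had the same sign in 9. No member was detected throughout one genotype and nowhere in the other. The calls rested on few arrays: 0 members were called in limma without control replicate 2, control replicate 3 or knockout replicate 3, where 14, 15 and 18 members had an unadjusted p under 0.05, and 2 without knockout replicate 1. Few genes of any kind were called in these fits: 0.272%, 0.361% and 0.186% of named genes, in that order, and 0.984% without knockout replicate 1.

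**Figure D1:**
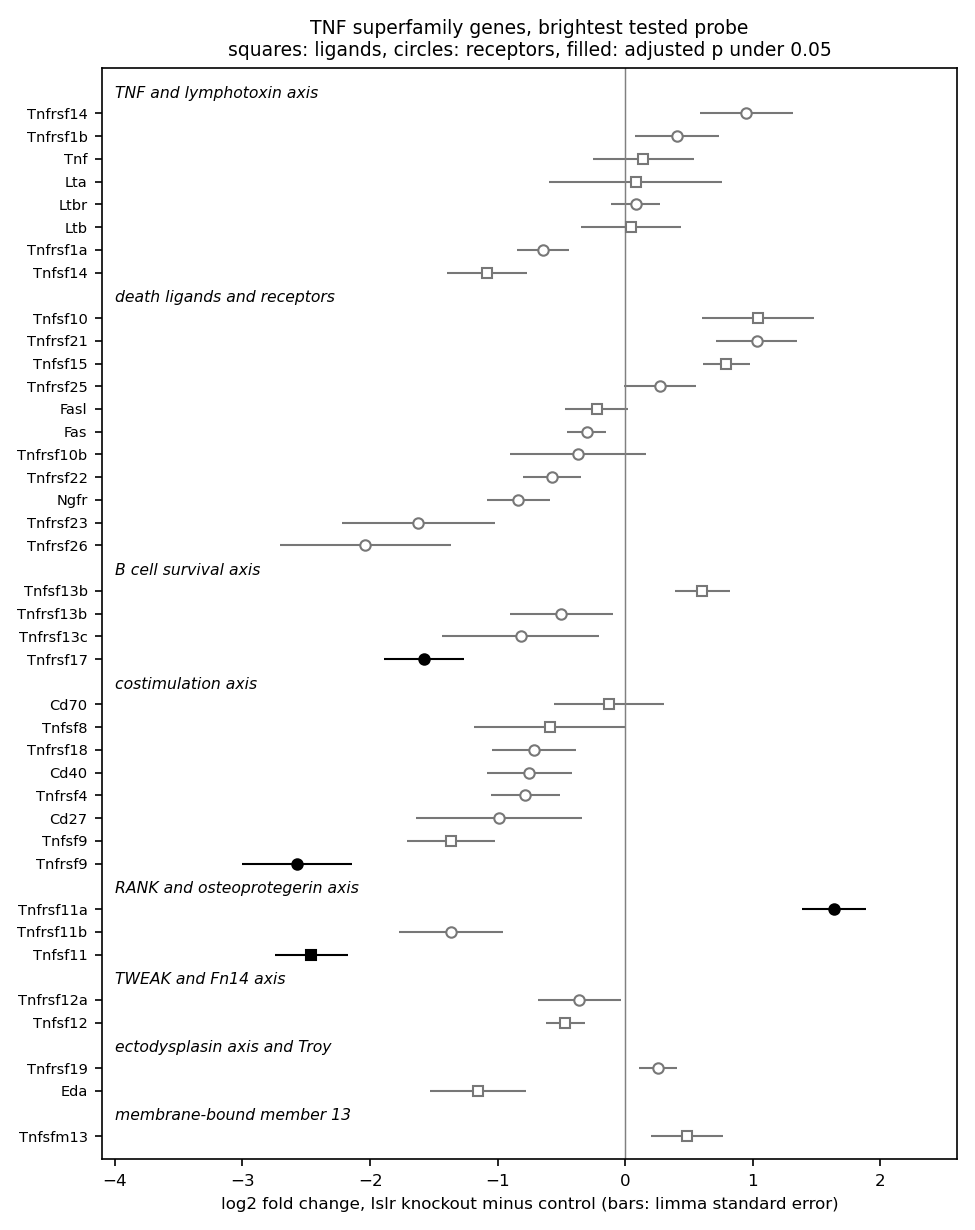
Log2 fold change (knockout minus control, horizontal axis) of the 39 tested members by their brightest tested probe, grouped by signalling axis, with limma standard errors as bars, squares for ligands, circles for receptors and filled symbols for adjusted p under 0.05. The 3 filled symbols left of 0 are Tnfrsf9, Tnfsf11 and Tnfrsf17, and the filled symbol on the right is Tnfrsf11a at 1.63.

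RANKL, encoded by Tnfsf11, is made by stromal and lymphoid cells and acts on RANK, the receptor encoded by Tnfrsf11a; osteoprotegerin, encoded by Tnfrsf11b, is a soluble decoy that binds RANKL. In the gut the system is known for the formation of lymphoid tissue and of M cells, the epithelial cells that sample antigen. Tnfsf11 read -1.34, -1.20 and -1.42 in the controls, replicates 1 to 3 in that order here and throughout, and -4.43, -3.45 and -3.46 in the knockouts. The highest knockout lay well below the lowest control. The difference was -2.46 (SE 0.29, limma adjusted p 0.0229), a 5.50-fold lower signal. Its second probe had too few usable spots for the test; with outlier spots kept it read 0.19, 0.42 and 0.47 in controls and -3.0, -1.65 and -1.81 in knockouts, a difference of -2.51 (SE 0.36, adjusted p 0.0257). In the fit over usable spots the call was lost without control replicate 2 (adjusted p 0.0673), control replicate 3 (0.0649) or knockout replicate 3 (0.0555), with differences of -2.62 to -2.13 over the 6 fits that left out an array.

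The receptor moved the other way. Tnfrsf11a read 0.04, -0.67 and -0.60 in controls and 1.47, 0.93 and 1.28 in knockouts, so the groups did not overlap. The signal rose by 1.63 (SE 0.25, limma adjusted p 0.0329), a 3.10-fold higher signal. A second probe, untested for lack of usable spots, read 0.60, -0.61 and -0.07 in controls and 1.66, 1.18 and 1.44 in knockouts with outlier spots kept, a difference of 1.46 (SE 0.32, adjusted p 0.0520). The call of the first probe was lost without control replicate 2 (adjusted p 0.0947) or 3 (0.0914) or without knockout replicate 1 (0.0737) or 3 (0.0877), with no filter on dim probes (0.0509) and under quantile normalization (0.0833). Tnfrsf11b read -0.92, -1.52 and -1.36 in controls and -3.49, -1.91 and -2.50 in knockouts; no value overlapped, but the difference of -1.37 (SE 0.41) did not pass (adjusted p 0.0958).

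Cell type markers moved beside these genes. Of 7 tested fibroblast markers 7 were lower in the knockout (median -0.63, range -1.40 to -0.13, 0 called, 4 at an unadjusted p under 0.05), and their summed signal, in multiples of the array's 75th percentile, was 35.1 to 38.9 in controls and 19.7 to 28.0 in knockouts. Of 7 tested colon epithelium markers 7 were higher (median 1.16, range 0.68 to 3.69, 0 called, 2 at an unadjusted p under 0.05), with a summed signal of 18.9 to 61.5 in controls and 71.0 to 92.4 in knockouts. T cell markers overlapped between the groups, with summed signals of 5.53 to 11 in controls and 5.14 to 9.34 in knockouts, and 8 of 9 were lower (median -0.32, 0 called, 1 at an unadjusted p under 0.05). Of all named genes 5.00% were called in limma and 32.9% had an unadjusted p under 0.05. The part of these markers in the results for Tnfsf11 and Tnfrsf11a was not tested.

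**Figure D2:**
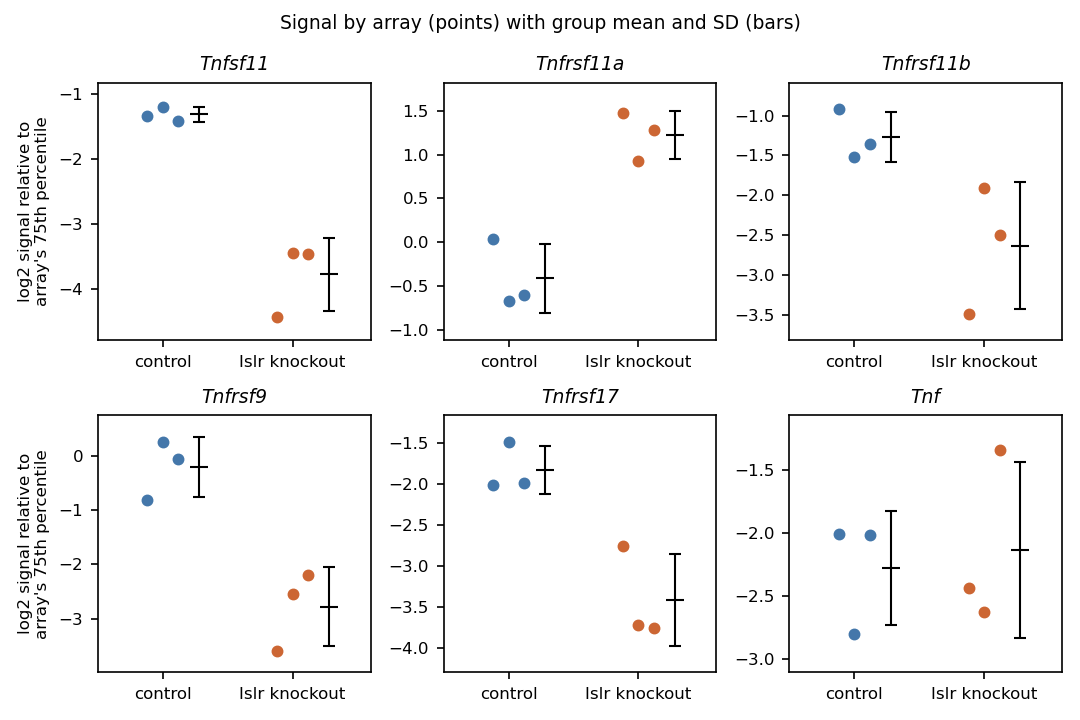
Log2 signal above the 75th percentile of each array (vertical axis, a scale of its own in each panel) of 6 members on each of the 6 arrays, with the group mean and SD as bars. The groups are separate for Tnfsf11, Tnfrsf11a, Tnfrsf11b, Tnfrsf9 and Tnfrsf17 and overlap for Tnf, shown by its brighter probe.

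Costimulatory members carry signals between antigen-presenting cells and T cells. The 8 that could be tested all had a lower mean in knockouts (median difference -0.77), beside 48.8% of named genes. Of them 1 was called lower, beside 3.20% of named genes. The receptor Tnfrsf9 (CD137, induced on activated T cells and NK cells) was the lowest of all tested members. Its brighter probe read -0.82, 0.26 and -0.06 in controls and -3.59, -2.55 and -2.19 in knockouts. Without overlap between the groups, it fell by 2.57 (SE 0.43, limma adjusted p 0.0373), which is 5.95-fold. The dimmer probe, well above background in 2 of 3 knockouts, read -2.71, -1.51 and -1.83 in controls and -5.99, -4.19 and -4.84 in knockouts and also fell (-2.99, SE 0.51, adjusted p 0.0386). The brighter probe kept its call without control replicate 1 alone among the 6 fits that left out an array, with adjusted p of 0.0992 and 0.101 for the other controls, in order, and of 0.0656, 0.0505 and 0.0730 for the knockouts. The dimmer probe lost it without control replicate 2 (0.103) or 3 (0.104) and without knockout replicate 1 (0.0666) or 3 (0.0911). With no filter on dim probes both lost it (0.0580 and 0.0600).

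The ligand of this receptor is encoded by Tnfsf9. It read -0.93, -0.63 and -1.13 in controls and -3.02, -1.94 and -1.82 in knockouts, so ligand and receptor both had every knockout below every control. The difference of -1.37 (SE 0.34) did not pass (limma adjusted p 0.0707), but passed with median centring (0.0467). Tnfrsf4 (OX40) and Tnfrsf18 (GITR), T cell receptors whose genes are neighbours on chromosome 4, differed by -0.79 (SE 0.27, adjusted p 0.127) and -0.72 (SE 0.33, adjusted p 0.216), with overlap between the groups for Tnfrsf18 only. Cd40, the receptor through which T cells license antigen-presenting cells, read -1.51, -0.59 and -0.92 in controls and -2.10, -1.17 and -2.0 in knockouts, with overlap (difference -0.75, SE 0.34, adjusted p 0.210). The remaining tested members of this axis were Cd27 (-0.99, SE 0.65), Tnfsf8 (-0.59, SE 0.59) and Cd70 (-0.13, SE 0.43), none of which passed.

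Further costimulatory members were too dim to test. Of the ligands, Cd40lg, which binds Cd40, was well above background on 1 of 6 arrays, Tnfsf18 on 1 and Tnfsf4 on none. The receptor Tnfrsf8 was well above background on 3. The signal of Cd40lg was -6.32 to -6.08 in controls and -5.86 to -5.48 in knockouts, which is not a measured level on 5 of the arrays.

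The B cell survival axis holds the ligand BAFF (Tnfsf13b) and 3 receptors on B cells and plasma cells. Tnfrsf17, which encodes the plasma cell receptor BCMA, read -2.01, -1.49 and -1.99 in controls and -2.76, -3.71 and -3.75 in knockouts. Every knockout lay below all controls, and the signal fell by 1.58 (SE 0.31, limma adjusted p 0.0474), or 2.98-fold. This call was near the threshold: it was lost without control replicate 1 (adjusted p 0.0549), 2 (0.135) or 3 (0.112), without knockout replicate 2 (0.0796) or 3 (0.118), with median centring (0.0512), with quantile normalization (0.210) and with no filter on dim probes (0.0734). BAFF was on the opposite side of 0: Tnfsf13b read 0.62, 0.35 and 0.10 in controls and 0.75, 1.28 and 0.85 in knockouts, without overlap, but the difference of 0.60 (SE 0.22) did not pass (adjusted p 0.136). The BAFF receptor Tnfrsf13c (-0.82, SE 0.62, on 2 usable knockouts) and the receptor TACI, encoded by Tnfrsf13b (-0.50, SE 0.40), had overlapping groups and did not pass. With outlier spots kept Tnfrsf13c differed by -0.425, and its dimmer probe differed by -0.434. Tnfsfm13, which encodes a membrane-bound fusion of TWEAK and APRIL, differed by 0.49 (SE 0.28, adjusted p 0.341) on 2 usable values per group.

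Beside Tnfrsf17, the 8 tested B and plasma cell markers were all below 0 (median -0.72). Of these only Fcrla was called, on 2 usable values per group (-1.95, SE 0.31, limma adjusted p 0.0486), beside 3.20% of named genes called lower. The summed signal of the markers overlapped between the groups, at 19.1 to 34.8 in controls and 16.4 to 26.9 in knockouts. The part of B cell and plasma cell content in the fall of Tnfrsf17 was not tested. Within each group these markers varied from array to array. Their mean log2 signal was -0.28, 1.36 and 1.41 in controls and 0.25, 1.05 and -0.35 in knockouts, lowest in control replicate 1 and knockout replicate 3. Lta, Ltb, Cd27, Tnfrsf13c, Tnfrsf13b, Tnfsf8 and Cd40, picked after their values were seen, were lowest in control replicate 1 among controls, and all of these but Cd40 were lowest in knockout replicate 3 among knockouts. Tnfrsf17 and Tnfrsf14 were lowest on the same pair of arrays, although control replicates 1 and 3 of Tnfrsf17 were close (-2.01 and -1.99), as were knockout replicates 2 and 3 (-3.71 and -3.75). Over all 39 tested members, control replicate 1 was the lowest control in 21, and the lowest knockout was replicate 1 in 21, replicate 3 in 11 and replicate 2 in 7.

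**Figure D3:**
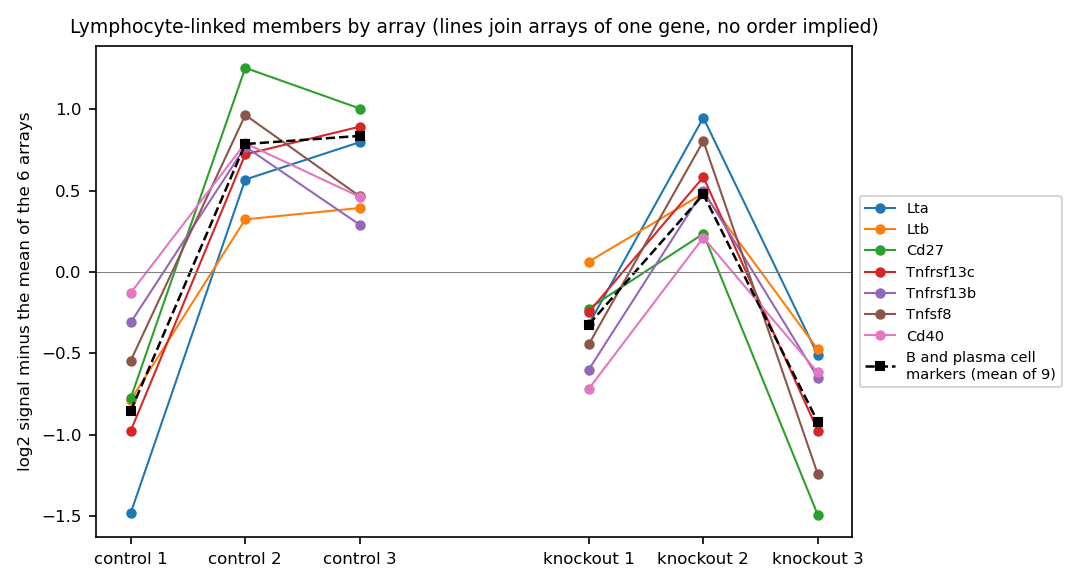
Log2 signal minus the mean of the 6 arrays (vertical axis, outlier spots kept) of 7 members known from lymphocytes and of the mean of 9 B and plasma cell markers (dashed) on each array. Control replicate 1 and knockout replicate 3 are low for the markers, at -0.28 and -0.35 before the mean was subtracted, and control replicates 2 and 3 are high.

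Tnf and the lymphotoxins, whose genes lie next to each other on chromosome 17 (Ltb, Tnf, Lta), are the members most closely tied to acute inflammation and lymphoid tissue. Tnf was well above background on all arrays with both of its probes, and neither passed the test. The brighter probe read -2.01, -2.80 and -2.02 in controls and -2.44, -2.63 and -1.34 in knockouts. These ranges overlapped, with a difference of 0.14 (SE 0.40, limma adjusted p 0.846) and of 0.02 (SE 0.35) at the other probe. Without knockout replicate 3, the highest array, the differences were -0.26 and -0.34.

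Lta (0.08, SE 0.68) and Ltb (0.04, SE 0.39), which together form the lymphotoxin heterotrimer, also overlapped and did not pass. Lta ranged from -1.67 to 0.61 in controls and from -0.70 to 0.76 in knockouts, and Ltb from 1.23 to 2.41 and from 1.54 to 2.50. Without control replicate 1 these differences were -0.64 and -0.34, so the sign of neither is settled. The lymphotoxin receptor Ltbr read 1.90, 2.14 and 2.28 in controls and 2.47, 2.0 and 2.08 in knockouts, a difference of 0.08 (SE 0.19).

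Of the 2 TNF receptors, Tnfrsf1a is found on most cells and carries a death domain, and Tnfrsf1b is mainly found on immune and endothelial cells. At its tested probe Tnfrsf1a read -0.85, -1.14 and -1.15 in controls and -2.04, -1.57 and -1.48 in knockouts, without overlap (difference -0.65, SE 0.20, limma adjusted p 0.106). Its brighter probe, with outlier spots kept, read 2.17 to 2.40 in controls and 2.09 to 2.32 in knockouts, a difference of -0.02, so the probes disagree on the size. Tnfrsf1b read -2.11, -2.26 and -2.24 in controls and -2.50, -1.71 and -1.18 in knockouts, a difference of 0.41 (SE 0.33) with overlap, which was 0.10 without knockout replicate 3.

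LIGHT, encoded by Tnfsf14, binds the lymphotoxin receptor and the receptor HVEM, encoded by Tnfrsf14. Tnfsf14 read -2.64, -2.35 and -2.81 in controls and -3.72, -3.08 and -4.25 in knockouts, and Tnfrsf14 read -3.47, -3.46 and -3.07 against -1.56, -2.66 and -2.93. Ligand and receptor were on opposite sides of 0 with no overlap at either, and neither passed: the differences were -1.09 (SE 0.31, limma adjusted p 0.0895) and 0.95 (SE 0.36, adjusted p 0.156). At the dimmer Tnfrsf14 probe the difference was 0.40 (SE 0.24, adjusted p 0.327). There knockout replicate 3 (-3.48) lay just above control replicate 3 (-3.50). Tnfsf14, Cd70 and Tnfsf9 are neighbours on chromosome 17, and their differences of -1.09, -0.13 and -1.37 were unlike in size. Without knockout replicate 2, Tnfsf14 passed (adjusted p 0.0498).

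Among death ligands and their receptors 0 of 11 tested genes passed in limma, beside 5.00% of named genes. Fas, the classical death receptor, read -1.32, -1.15 and -1.33 in controls and -1.41, -1.60 and -1.69 in knockouts, a difference of -0.30 (SE 0.15, adjusted p 0.259) without overlap. Its ligand Fasl differed by -0.22 (SE 0.25) on 2 usable controls, with overlap. Tnfsf15, which encodes TL1A, a cytokine of mucosal T cells, read -0.84, -1.34 and -0.95 in controls and -0.11, -0.33 and -0.31 in knockouts. Every knockout was above every control at both of its probes, by 0.79 (SE 0.19, adjusted p 0.0623) and 0.77 (SE 0.22, adjusted p 0.0922). The brighter of these passed with normexp background correction (adjusted p 0.0479). Its receptor Tnfrsf25 differed by 0.27 (SE 0.28).

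TRAIL, the death ligand encoded by Tnfsf10, read -0.72, -0.65 and -1.19 in controls and 1.15, 0.01 and -0.59 in knockouts, a difference of 1.04 (SE 0.44, limma adjusted p 0.187). Its knockout values were widely spread, and knockout replicate 3 lay just above the highest control. Tnfrsf10b, the mouse TRAIL death receptor, differed by -0.37 (SE 0.53) on 2 usable values per group. Tnfrsf26, Tnfrsf22 and Tnfrsf23 are consecutive protein-coding genes on chromosome 7, and Tnfrsf22 and Tnfrsf23 encode decoy receptors for TRAIL. All 3 were lower without overlap between the groups. Tnfrsf26 read -2.62, -1.48 and -2.19 in controls and -5.20, -2.62 and -4.58 in knockouts, so control replicate 1 and knockout replicate 2 were equal to 2 decimals. Tnfrsf23 read -1.43, -0.96 and -1.34 against -4.33, -1.96 and -2.30. The differences were -2.04 (SE 0.67, adjusted p 0.115), -1.62 (SE 0.60, adjusted p 0.146) and, for the brighter Tnfrsf22 probe, -0.57 (SE 0.23, adjusted p 0.166). Without knockout replicate 2, Tnfrsf26 passed, with a difference of -2.79 (adjusted p 0.0333). Without knockout replicate 1, the lowest array of both genes, the differences were -1.50 for Tnfrsf26 and -0.89 for Tnfrsf23. These 3 receptors are close relatives, and whether their probes read each other's transcripts was not tested.

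Tnfrsf21, a death domain receptor also called DR6, read -1.46, -2.58 and -1.56 in controls and -0.90, -0.96 and -0.65 in knockouts, a difference of 1.03 (SE 0.32, limma adjusted p 0.101) without overlap, and its dimmer probe was also above 0 (0.64). Ngfr, the low-affinity neurotrophin receptor known from nerve, glia and some stromal cells, differed by -0.84 (SE 0.25, adjusted p 0.0927), also without overlap. Enteric neuron and glia markers were below 0 in 5 of 5 tested genes (median -0.65). Of these 0 were called and 3 had an unadjusted p under 0.05 in limma (all named genes 5.00% and 32.9%). Summed signals of these markers were 7.81 to 8.66 in controls and 5.90 to 7.12 in knockouts, and their part in the value of Ngfr was not tested.

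TWEAK, encoded by Tnfsf12, and its receptor Fn14, encoded by Tnfrsf12a, are known from tissue repair. Tnfrsf12a read 1.34, 1.58 and 1.78 in controls and 0.53, 1.32 and 1.77 in knockouts, a difference of -0.36 (SE 0.33) with overlap. Tnfsf12 was less variable, and its difference of -0.47 (SE 0.15, limma adjusted p 0.113) came without overlap. Eda, the ectodysplasin ligand of skin appendage development, read -1.76, -2.51 and -2.64 in controls and -4.17, -2.98 and -3.22 in knockouts (difference -1.15, SE 0.38, adjusted p 0.114). Its receptor Edar was well above background only in knockout replicate 3. Troy, the receptor encoded by Tnfrsf19 and known from intestinal stem cells, was above 0 at both probes without overlap, by 0.26 (SE 0.15) and 0.50 (SE 0.15, adjusted p 0.0933). At the first of these probes, the brighter, knockout replicate 1 (-1.49) lay just above control replicate 2 (-1.50).

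Downstream of the receptors, the adaptor and death signalling list of 24 genes had 21 tested, 10 lower and 11 higher, with a median of 0.01. Differences ran from -0.60 to 1.17, and 9 genes had an unadjusted p under 0.05 in limma. Beside this and the following lists stand all named genes, with 32.9% at that p and 5.00% called. The summed signal of the list, outlier spots kept, was 36.6 to 39.1 in controls and 45.4 to 50.6 in knockouts. Among the higher genes, Casp8 (1.16, limma adjusted p 0.0712), Ripk3 (1.13, adjusted p 0.0773) and Tradd (1.02, adjusted p 0.0903) did not pass. The genes called were Cflar, the inhibitor of caspase 8 activation at death receptors (1.17, SE 0.20, limma adjusted p 0.0384), and Traf4 (1.06, SE 0.19, adjusted p 0.0420), both higher, a share of 2 in 21 beside the 1.81% of named genes called higher. Cflar read -1.13, -1.42 and -1.53 in controls and -0.42, -0.23 and 0.09 in knockouts, but its dimmer probe differed by -0.14 and was not called. The 14 NF-kB subunits, kinases and inhibitors ranged from -0.72 to 0.25 with a median of -0.06; 0 were called in limma and 3 had an unadjusted p under 0.05. Of the proteases and partners that shed ligands, 4 were tested and 0 called (2 at an unadjusted p under 0.05), with 2 lower and 2 higher. The lower genes were Rhbdf2, a partner of the TNF-releasing protease Adam17, at -0.70 (SE 0.17, adjusted p 0.0669) and Rhbdf1 at -0.65 (SE 0.15, adjusted p 0.0591). The proteases Adam17 (0.33, SE 0.17) and Adam10 (0.25, SE 0.20) were above 0. Of 6 lymphotoxin-dependent genes 4 were tested and 0 called (2 at an unadjusted p under 0.05), with 3 above and 1 below 0.

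A list of genes that TNF is known to induce in many cell types was mostly below 0. Of 20 listed genes 16 were tested, and 15 were below 0, with a median of -1.88, also when the gene below is set at its bound. The genes called were Csf3, Mmp9, Tnfaip2 and Selp, a share of 4 in 16 beside 3.20% of named genes called lower. Csf3, which encodes the neutrophil growth factor G-CSF, was not well above background on any knockout array and was at least 14.3-fold higher in controls, of which 2 had a usable spot (limma adjusted p 0.0169); here the bound takes on each knockout array the higher of the lowest signal well above background and the probe's own. Tnfaip2 fell by 1.76 (SE 0.33, adjusted p 0.0437), and its dimmer probe was also called. The protease gene Mmp9 fell by 2.86 (SE 0.56, adjusted p 0.0468), while its dimmer probe was not called (-2.405, SE 0.675, adjusted p 0.0862). Both Mmp9 probes were well above background in 2 of 3 knockouts. Selp, which encodes the endothelial adhesion molecule P-selectin, was called at a dimmer probe (-3.78, SE 0.76, adjusted p 0.0487) and not at its brightest (-1.79, SE 0.46, adjusted p 0.0739). Signals other than TNF also induce these genes. Over all these pathway lists 6 of 59 tested genes were called, beside 5.00% of named genes. Without control replicate 2, control replicate 3 or knockout replicate 3, 0 were called (20 at an unadjusted p under 0.05 in each), beside 0.272%, 0.361% and 0.186% of named genes. Without knockout replicate 1 there were 3 called, beside 0.984% of named genes.

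Markers of neutrophils, endothelium and macrophages were also below 0 beside these genes. Of 7 tested neutrophil markers 6 were called lower (median -3.73), beside 3.20% of named genes, and Ngp was well above background on no array. The other tested marker, Csf3r, differed by 0.17 (SE 0.14). Summed signals of the list were 20 to 21.1 in controls and 10.1 to 10.5 in knockouts. Bright Csf3r, at log2 signals of 3.14 to 3.31 in knockouts, weighs heavily in these sums. The mean log2 signal of the list was -0.39 to -0.10 in controls and -3.06 to -2.40 in knockouts. Endothelial markers were lower in 7 of 7 (median -0.99, 0 called, 6 at an unadjusted p under 0.05), with summed signals of 10.9 to 12.5 against 3.34 to 6.71, and macrophage markers in 8 of 8 (median -0.81, 0 called, 5 at an unadjusted p under 0.05), with 16.5 to 25.8 against 9.20 to 15.1. Of all named genes 5.00% were called in limma and 32.9% had an unadjusted p under 0.05. The part of these markers in the values of the TNF-induced genes, of Tnfrsf9 and of the other members was not tested.

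**Figure D4:**
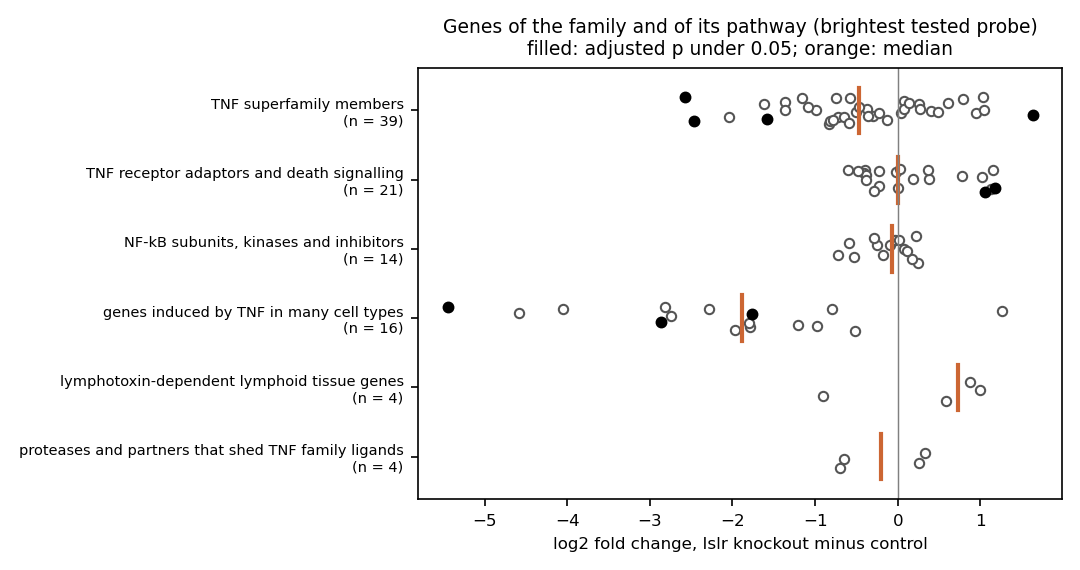
Log2 fold change (knockout minus control, horizontal axis) of each tested gene by its brightest probe for the TNF superfamily and 5 pathway lists, with filled points for an adjusted p under 0.05 at that probe and a line at the median. The TNF-induced genes have a median of -1.88, while the medians of the adaptor list (0.01) and the NF-kB list (-0.06) lie near 0; Csf3 is drawn at its fitted value.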

How the data were processed

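Whole-genome expression was measured on 6 single-colour Agilent arrays of 1 slide (design 074809), 1 per animal. Per the file headers, spots were read with Feature Extraction 11.5.1.1, and the deposited values are intensities of the red channel after background subtraction, without scaling between arrays; the labels name the dye Cy3 and the submitters' processing notes give version 10.7. The labels do not say how the animals were related, and their number limits the precision. The log2 signal minus the array's 75th percentile was used, outlier spots (3.26% to 16.0% per array) were set missing, and spots of a probe were averaged. A probe was tested if well above background on all 3 arrays of a group with at least 2 usable values per group. Tests were made with limma 3.58.1 (R 4.3.3), two-sided, genotype as the only term, with Benjamini-Hochberg adjustment over all tested probes. The procedure was tested on simulated data in which 200 of 35351 probes were changed. It recovered 10.6% of changes of 1 log2 unit, 56.7% of 2 units and 76.1% of 3 units, with 4 false calls among 100. A member that did not pass may therefore still differ. Summed marker signals and values said to keep outlier spots include those spots. Promoters and names came from RefSeq (GRCm38.p6; the probes were designed on mm9, so no probe positions are given). A gene's brightest tested probe stood for it in counts by sign and medians, and any called probe made a call. Members given array by array were those called, those at least 2-fold different without overlap, and 17 chosen for their roles. Members, lists and this rule were chosen with earlier results of these data known. Pathway genes are named where called and otherwise for their role. Further pathway genes, markers and probes were named after their values were seen.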

Additional observations from a re-analysis of the deposited data

How the results depend on the processing

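With 3 arrays per group the calls depended on single arrays and on how the spread was estimated. The 1403 probes called became 2558 with normexp background correction, 2249 with median centring, 414 with quantile normalization, 484 with no filter on dim probes, 9292 with array weights, 2274 from the series' value table and 40 to 2114 when 1 array was left out. The 4 members called became 2 with quantile normalization (Tnfrsf9 and Tnfsf11) and 1 with no filter (Tnfsf11). They became 22 with array weights and 0 to 5 with 1 array left out. Of named genes 5.00% were called in the main fit, 1.56% with quantile normalization, 1.25% with no filter and 32.6% with array weights. This share was 0.186% to 7.69% with 1 array left out. The 6 pathway genes called became 14 with normexp, 10 with median centring, 1 with no filter, 28 with array weights, 10 from the value table, 13 with an intensity trend and robust variance, and 0 to 8 with 1 array left out. The share of named genes called was 9.11% with normexp, 7.74% with median centring, 6.97% from the value table and 7.14% with an intensity trend and robust variance. Members below 0 numbered 23 to 28 in every setting, of 36 to 44 tested, and their median stayed below 0. Islr differed by -2.58 to -2.35 in the 4 fits with 1 array left out that could be made (without control replicate 2 or 3 a single usable control was left), and lost its call without knockout replicate 3 (limma adjusted p 0.0580).

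Of 27 member probes followed through the alternatives, 21 kept their sign in all fits that could be made. The sign turned for Fasl under quantile normalization (0.16), for Lta with array weights (-0.44), for Ltb under quantile normalization (-0.088) and with array weights (-0.34), and for Ltbr in the same settings (-0.058 and -0.055). With 1 array left out the ranges were -0.64 to 0.50 for Lta, -0.34 to 0.29 for Ltb, -0.062 to 0.17 for Ltbr, and -0.26 to 0.39 and -0.34 to 0.25 for the brighter and dimmer probe of Tnf. The cause of these changes was not tested. No paired analysis was possible because the labels give no replicate numbers. Signal over background limits the dim members: 5 of 44 could not be tested.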
